A study of Homo sapiens with 20 samples.

Results

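Very wide N6-methyladenosine (m6A) regions were examined in 2 human bladder cancer cell lines. A region is a stretch of the genome (hg38) covered without a gap by the m6A peaks of 10 libraries joined together, and it was taken as very wide when it spanned 1500 bases or more on chromosomes 1 to 22 or X. Of 43252 joined regions on these chromosomes, 1157 met this rule, and they are called wide regions here. Their widths ran from 1501 to 6756 bases with a median of 1862, against a median of 272 bases in the other 42095 regions. Width was the measure that chose them, so widths, numbers of peaks and covered bases over the chosen set are descriptions, and these were tested only in libraries held out of the choice. The 3 wide regions just inside the limit lay in AMBRA1, TMEM121 and ITPKC, each 1501 bases wide. Just outside it lay regions of PRSS23 and ZC3H6, both 1498 bases wide, and ZZZ3, 1497 bases wide.

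m6A is placed on nascent RNA by the METTL3 and METTL14 writer complex, mostly at adenines inside the short motif DRACH. Marks gather in long internal exons, in last exons and around stop codons, and are read by YTH-domain proteins that affect the decay, splicing and translation of the transcript. Fragments pulled down with an antibody are longer than the modified site, so several nearby marks can join into 1 broad peak.

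The lines were T24, which is sensitive to cisplatin, and T24R2, an established line derived from it that is resistant. Both were labelled wild type and harvested at day 3. Per the paper, T24R2 was kept with cisplatin in its medium, and no drug is named for the medium of T24. Drug exposure and line therefore cannot be told apart here. The libraries were 5 pull-down libraries of each line, numbered 1 to 5, and input RNA served as background when the authors called peaks. T24R2 is a single resistant line, and the labels do not state whether replicates came from separate cultures, so p-values measure only the spread between these libraries. Each library had its own peak list, of 17203 to 22901 peaks in T24 and 22671 to 33120 in T24R2. Read depths were not used here, and no counting interval could be given. Pulled-down signal is set against input, yet fewer copies of an RNA and fewer marks per copy cannot be fully told apart in these lists. Of 15 listed markers of urothelium, such as keratins and uroplakins, 6 had an m6A region and only FOXA1 had a wide one, and absence from a peak list is no measure of RNA level.

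To show what the signal within these regions sits on, the DRACH motif nearest to the most recurrent summit (the highest point of a peak) is given for 13 regions that the results turn on. Each line is 29 bases of hg38 read along the transcript, 5′ to 3′, with the motif in capitals. DRACH stands for A, G or T, then A or G, then AC, then A, C or T. A match is a description of the letters at that place and not a measured modified base. The first 7 are regions classed as coding, among them the m6A writer subunit RBM15 and the reader YTHDF2. AHNAK2 is a giant scaffold gene, and the last 5 belong to regions that differed in strength between the lines.

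MKI67, chr10:128104783-128104811, minus strand: atctccacaaccAGACCcagtggacaccc
ZNF646, chr16:31078520-31078548, plus strand: tgaatctgaaggGGACAaatgtgggcttg
IRS1, chr2:226795919-226795947, minus strand: ccagagaggaagAGACTggcactgaggag
AHDC1, chr1:27549899-27549927, minus strand: aggtagacgctgTGACTgggaagccaaag
JUN, chr1:58782069-58782097, minus strand: cgcagcagttgcAAACAttttgaagagag
RBM15, chr1:110340368-110340396, plus strand: accattgcctcgAGACCtggagagagaaa
YTHDF2, chr1:28743722-28743750, plus strand: tgtgtggtcccaGGACAaatggaagggtc
AHNAK2, chr14:104945559-104945587, minus strand: acggctggagggGGACCtgtccctggccg
FOXA1, chr14:37591342-37591370, minus strand: tcctagctcccgGGACTggggggtttgtc
CKAP4, chr12:106239156-106239184, minus strand: tgaaaatgctcaGGACTgctgtggacagt
RNF26, chr11:119336085-119336113, plus strand: gacccggagacaGGACActcttcctgaag
IGFBP5, chr2:216674538-216674566, minus strand: ttgctcatggcaTGACAcagcggagaccg
NR2F2, chr15:96331511-96331539, plus strand: gacttggcccccGGACAgtcgcctctcct

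The summits beside these motifs recurred to different degrees. In YTHDF2, CKAP4, RNF26 and IGFBP5 all 10 libraries had a summit at the site, and the motif lay 5 to 16 bases from its midpoint. In AHDC1 the most recurrent site was found in 4 of 10 libraries, and the nearest motif lay 42 bases away. By where most of their summits lay, the regions of FOXA1 and IGFBP5 were classed as 3′ UTR, that of NR2F2 as 5′ UTR, and the other 10 as coding.

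Over all summit sites of wide regions that lay in exons of 1 strand, 89.0% of 2953 had DRACH within 50 bases on the transcribed strand, and 70.4% had it on the opposite strand. The corresponding shares at 23837 sites of other regions were 89.3% and 72.6%, so nearby motifs were about as common in both kinds of region. Among the 346 sites found in all 10 libraries the shares were 93.9% sense and 65.03% antisense, a gap of 28.9 percentage points. Among 835 sites found in 1 library they were 84.6% and 70.8%, a gap of 13.8 points. Along the full length, 863 wide regions with at least 90% exonic bases held a median of 1.88 DRACH motifs per 100 bases on the sense strand, and 19508 other regions held 2.09. Wide regions were thus no denser in the motif. They held more copies through their length, with a median of 37 against 7, and MKI67 held 240.

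Wide regions lay mainly in long exons. Classed by where most of their summits lay (GENCODE 44), 646 (55.8%) were coding sequence, 280 (24.2%) were 3′ UTR, 44 were 5′ UTR, 76 were non-coding exon, 75 (6.48%) were intronic and 36 were intergenic. Of the other regions, 32.4% were coding, 15.9% were 3′ UTR and 24.6% were intronic. Exons held 87.2% of the bases of wide regions and 67.7% of the bases of other regions. Classed by the largest share of bases in place of summits, 57.6% were coding, 22.4% were 3′ UTR and 7.87% were intronic, and both ways gave the same class for 1020 (88.2%) wide regions. The class by summits is used from here on. These shares are descriptions, with no test.

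For 1034 wide regions an exon of the gene's canonical transcript could be assigned, and its median length was 2656 bases. The same exon was 784 bases long in the median over 25539 other regions. The exon was 1500 bases or longer in 82.8% of wide and 35.8% of other regions. Last exons held 606 (58.6%) of these wide regions, internal exons held 213 (20.6%), single-exon genes held 115 and first exons held 100. The canonical stop codon was inside 626 (54.1%) wide regions and 11.01% of other regions, and the start codon was inside 284 (24.5%) and 5.51%. Both codons were inside 163 wide regions. Only 315 (27.2%) fitted whole within 1 canonical exon, so most crossed an exon end, and 214 (18.5%) had annotated exons on both strands, where the source gene is uncertain.

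**Figure D1:**
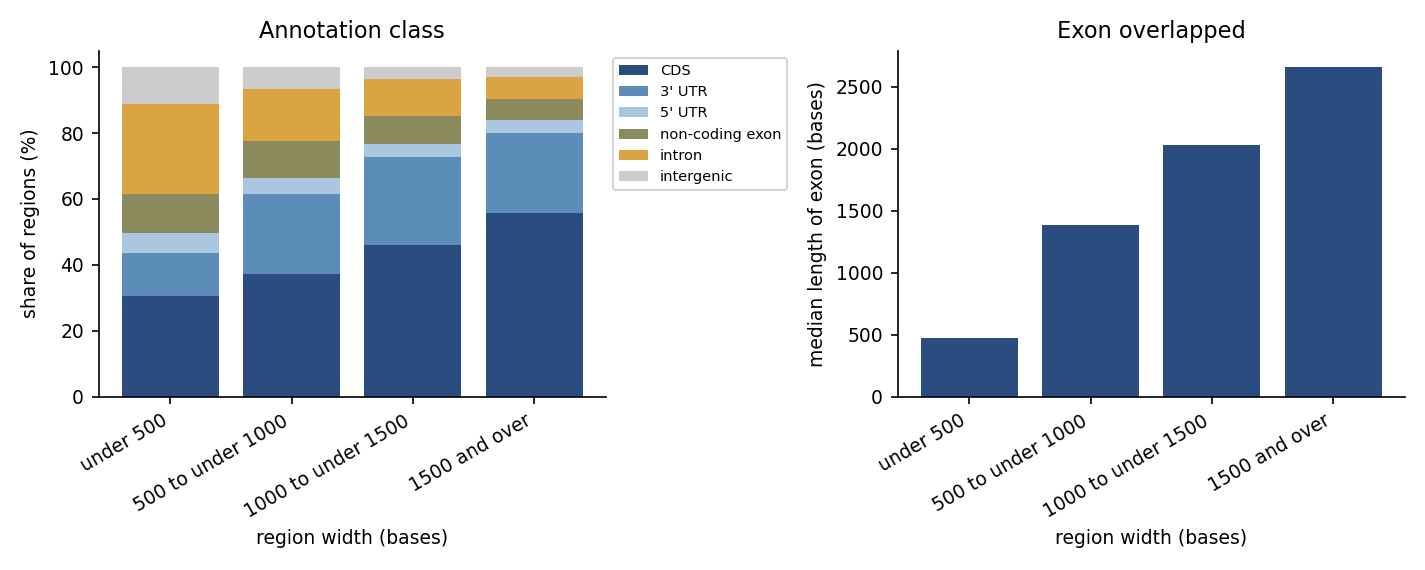
Share of joined m6A regions in each annotation class, by where most summits lay (left, percent), and median length of the canonical exon they overlap (right, bases) in 4 bins of region width. From regions under 500 bases to wide regions of 1500 bases and over, the coding share ran from 30.5% to 55.8%, the intron share from 27.5% to 6.48% and the median exon length from 469 to 2656 bases.

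The exon classes changed with width without a break at 1500 bases. Regions of 1000 bases or more but under 1500, the 2064 regions most like the wide ones, were 46.0% coding and 11.1% intronic, held a stop codon in 39.6% and lay on exons with a median of 2030 bases. Their median fold percentile was 75.2, against 81.2 in wide regions. Here the fold percentile is the rank, from 0 to 100, of a region's highest fold enrichment (pull-down over local input, as the authors' peak caller gave it) among all peaks of the same library, and the median was taken over libraries and then over regions.

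The chromosomes differed in their share. Chromosome 19, which carries many zinc finger genes with long last exons, held 161 wide regions, or 5.91% of its joined regions, against 2.68% over all chromosomes. Chromosome 16 followed at 3.82% and chromosome 17 at 3.00%, and the lowest share was 1.49% on chromosome 6.

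MKI67, which encodes the proliferation antigen Ki-67, had the widest region, 6756 bases at chr10:128102663-128109418. It lay within exon 13 of 15, an internal coding exon of 6845 bases. The T24 libraries, in the order of replicates 1 to 5, split it into 7, 8, 7, 7 and 9 peaks that covered 65.3%, 31.0%, 65.4%, 64.2% and 29.6% of its bases. In T24R2 it was split into 3, 1, 4, 2 and 2 peaks that covered 88.0%, 99.5%, 80.5%, 96.4% and 97.2%. Each T24 library thus had more peaks and less cover than every T24R2 library. The region was picked for its width, which these same peaks set, so this is a description. How often wide regions lacked overlap in this way was not counted. Joined over libraries, the summits of the region formed 18 separate sites, the most of any wide region. Its fold percentile was low in both lines, with means of 7.78 and 25.02 (limma adjusted p = 0.375).

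**Figure D2:**
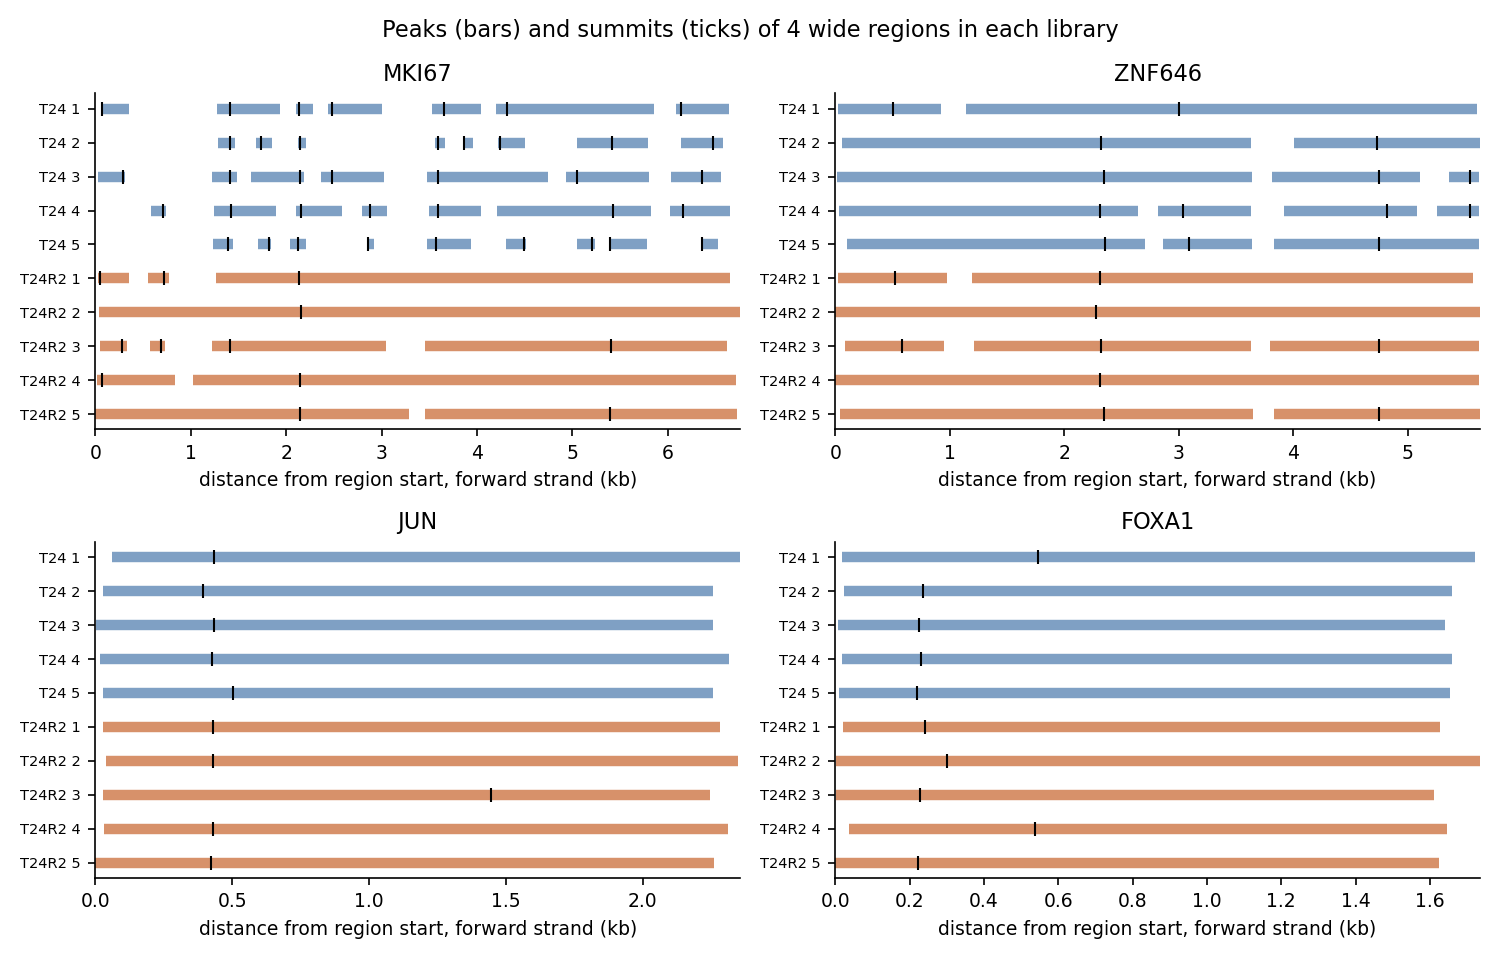
Peaks (bars) and their summits (ticks) in the wide regions of MKI67, ZNF646, JUN and FOXA1, by distance from the region's start on the forward strand (kb), with 1 row per library (T24 in blue, T24R2 in orange). MKI67 was split into 7 to 9 peaks in T24 and 1 to 4 in T24R2, whereas JUN and FOXA1 were 1 peak in each of the 10 libraries.

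The next widest regions were also in genes with giant exons. The coding exon of ZNF646, a zinc finger gene on chromosome 16, held a region of 5628 bases, and IRS1, the insulin receptor adaptor, held one of 5482 bases in its first exon. The transcriptional coactivator MN1 (5159 bases), PROB1 (5147 bases), the cytolinker PLEC (5099 bases), AHDC1 (5080 bases), LRRC14 (4499 bases) and HELZ2 (4413 bases) followed with coding regions. The remaining member of the widest 10 was an intergenic region of 4867 bases at chr1:224011668-224016534. It was called in all 10 libraries, as 3 to 6 peaks in T24 and 2 to 7 in T24R2. No annotated exon touched it.

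These 10 differed in strength. AHDC1 had mean fold percentiles of 97.8 in T24 and 98.8 in T24R2, IRS1 had 91.0 in both lines, and the intergenic region had 96.6 and 95.2. PLEC was near the bottom with 4.44 and 13.3. The significance of a peak ranked differently from its fold: by −log10 q, the median percentile over the 10 libraries was 58.4 for this PLEC region and 80.9 for MKI67, against 98.6 for AHDC1. A wide region with a low fold could thus rank well by significance. By limma, 0 of these 10 passed for a difference in fold percentile between the lines. HELZ2 alone had an unadjusted p under 0.05 (means 50.5 and 87.1), as did 133 of all 1073 wide regions tested.

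Wide regions were seldom 1 smooth peak everywhere. A single peak of 1500 bases or more was present in at least 1 library for 944 (81.6%) wide regions, in all 10 libraries for 83, and in no library for 213, whose width arose by joining. Only 89 were 1 peak in every library that called them, among them JUN and FOXA1, while 60 were split into at least 2 peaks in all 10 libraries and 52 into at least 5 in some library.

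Summits from different libraries within 100 bases were joined into sites. The 1157 wide regions held 4722 such sites, with a median of 4 and a range of 1 to 18 per region, against a median of 1 in other regions. Neighbouring sites lay a median of 394 bases apart. Only 507 sites (10.7%) recurred in all 10 libraries, and 1317 (27.9%) were seen in 1 library. At least 1 fully recurrent site was found in 502 (43.4%) wide regions and 2 such sites in 5. Each peak gives 1 summit, so 2 such sites were possible only in the 60 regions with at least 2 peaks in all 10 libraries. Recurrence therefore depends on how each library split a region into peaks. In YTHDF2 a summit was placed at 1 site by all 10 libraries, whereas the 9 sites of the widest PLEC region included none.

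The number of wide regions called differed little in size but without overlap between the lines. T24 replicates 1 to 5 called 1125, 1107, 1114, 1126 and 1111 of them, and T24R2 replicates 1 to 5 called 1146, 1145, 1144, 1147 and 1148. The lowest T24R2 library was above the highest T24 library, and the means differed by 29.4 regions.

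Peaks per called wide region were 1.56, 2.00, 2.11, 1.88 and 2.18 in T24 and 1.70, 1.31, 1.98, 1.39 and 1.66 in T24R2. The ranges overlapped, with T24 replicate 1 below 3 T24R2 libraries. The means were 1.95 ± 0.245 (SD, n = 5) and 1.61 ± 0.269 (SD, n = 5). Separate summits gave almost the same numbers because each listed peak has 1 summit, and few were joined within a library.

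The covered share of wide region bases was 72.4%, 53.7%, 59.0%, 66.1% and 56.1% in T24 and 77.0%, 87.1%, 67.6%, 86.4% and 82.9% in T24R2. Only T24R2 replicate 3 fell inside the T24 range. The means were 61.4% ± 7.70 (SD, n = 5) and 80.2% ± 8.08 (SD, n = 5). Single peaks of at least 1500 bases numbered 132 to 400 per T24 library and 256 to 691 per T24R2 library. When the lists of a line were joined alone, 571 of the wide regions still held a segment of 1500 bases in T24 and 1048 did in T24R2. The wide set was therefore chosen more from T24R2 peaks than from T24 peaks.

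To keep each list out of the choice of its own regions, the lines were tested on held-out libraries. For each replicate number, wide regions were taken from the other 8 lists and measured in the 2 lists left out. Cover averaged 62.7% ± 6.90 (SD) over the 5 T24 libraries, against 80.6% ± 7.86 (SD) over the 5 T24R2 libraries, a difference of 17.9 percentage points (exact permutation test, two-sided, p = 0.0159, adjusted p = 0.0317 over 4 measures). The share called was 96.6% and 98.6%, a difference of 1.92 points (exact permutation p = 0.00794, the smallest that 5 against 5 allows, adjusted p = 0.0317). Peaks per called region differed by -0.346 and did not pass (exact permutation p = 0.0714). The lists left out did not choose their regions, yet the other 8 lists came from the same lines. Of the full wide set, 559 regions kept the required width in the T24R2 lists joined alone and not in the T24 lists. The reverse held for 82. The choice thus still leaned on T24R2 peaks, so the tests of cover and share called cannot separate a line difference from that choice. The share called was not set beside that of other regions. A higher cover in T24R2 was also not particular to wide regions: in 8453 other regions called in all 10 libraries it was 61.0% in T24 and 75.2% in T24R2. These other regions were joined from all 10 lists with none held out, so their cover is a description.

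**Figure D3:**
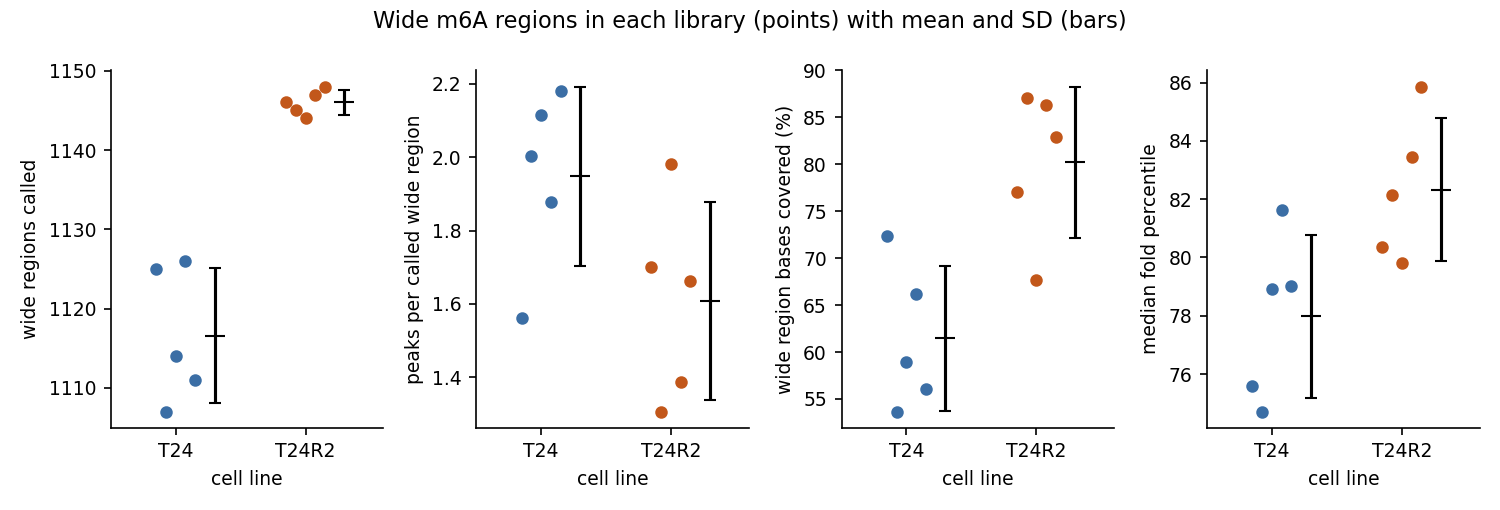
Wide m6A regions called, peaks per called wide region, share of wide region bases covered (percent) and median fold percentile in each of the 5 libraries of T24 and T24R2 (points), with the mean and SD beside them. T24R2 libraries called 1144 to 1148 and T24 libraries 1107 to 1126, and cover averaged 80.2% in T24R2 and 61.4% in T24.

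The median fold percentile of wide regions was 75.6, 74.7, 78.9, 81.6 and 79.0 in T24 and 80.4, 82.2, 79.8, 83.4 and 85.9 in T24R2. The medians of other regions were 48.6 to 51.0. Those of the 8453 other regions called in all 10 libraries were 59.6 to 76.8, in each library lower than the wide regions. The percentile is that of the highest peak, and wide regions held more peaks. They had 1.95 per called region in T24 and 1.61 in T24R2, against 1.12 and 1.08 in those 8453 regions. With the mean fold weighted by peak width, the medians of wide regions averaged 65.4 in T24 and 75.2 in T24R2. How far the number of peaks sets this ranking was not tested. By the highest peak, wide regions were higher in T24R2 by 4.35 percentile points on average (exact permutation p = 0.0397, adjusted p = 0.0661 over 5 measures), and this did not pass after adjustment. The other regions called in all 10 libraries were higher in T24R2 by 6.01 points (exact permutation p = 0.0317). T24R2 lists also held more peaks, with means of 25837 and 20456. When each list was restricted to its 17203 most significant peaks, the difference was -0.389 points (exact permutation p = 0.698). The shift over all wide regions was thus not seen at equal list length. Cover over the chosen set was then 59.4% in T24 and 77.4% in T24R2, given as a description.

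By −log10 q the medians were 82.1 to 86.9 in T24 and 87.2 to 90.8 in T24R2, above those of fold in all 10 libraries. Wide regions took up 10.7% of the peaks and 21.7% of the covered bases in T24 on average, and 7.25% and 19.4% in T24R2.

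Most wide regions were present in both lines. All 10 libraries called 1073 (92.7%), where 22% of all joined regions were called in all 10, and this follows in part from the rule, since regions joined over more libraries are wider. All T24R2 libraries but only some T24 libraries called 46, and the reverse held for 6. T24R2 alone, in all 5 libraries and in no T24 library, called 22 (1.90%, against 3.02% of all regions), and T24 alone called 9 (0.778%, against 1.04%).

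By Fisher's exact test on 5 against 5 libraries, 29 wide regions had an unadjusted p under 0.05 toward T24R2 (2.51%, with a background of 7.11%) and 9 toward T24 (0.778%, with a background of 2.09%). None passed after adjustment over all regions, where the lowest adjusted p that 5 against 0 can reach was 0.195. These shares were not tested against the background, and they follow in part from the rule, as above.

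The T24R2-only regions included transcription factor genes. The coding region of BCL11B, a zinc finger regulator of T cell development, was 2347 bases wide (chr14:99173967-99176313), and that of POU3F2, a neural homeodomain factor, was 1520 bases wide (chr6:98835146-98836665) with a mean fold percentile of 99.3. Others lay in SCN8A, which encodes a sodium channel, in FAM222A, in GAS1, which encodes a growth arrest surface protein, in the 3′ UTR of KCTD15 and in DDX53. A region of 2068 bases in an intron of NFE2L3 held no exonic base, and the ANO9 region of 1853 bases at chr11:433219-435071 was mainly intronic. Of the 29 regions toward T24R2, 8 were classed as intronic and 4 as intergenic.

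The 9 T24-only regions included those of SOWAHB (2627 bases, coding), CCDC27, ZNF826P, NRXN3, MELTF, FAM167B and GPR173, and 1 was intergenic on chromosome 19. Another exonic region of the same gene was called in all 10 libraries for 2 of the 29 T24R2 regions and for 0 of the 9 T24 regions. The remaining 36 include 4 intergenic regions toward T24R2 and 1 toward T24, which have no assigned gene. For the others of the 36, loss of a mark cannot be told apart from low RNA of the whole gene in that line. A further region called in all 10 libraries shows that a gene was detected and does not measure its RNA level.

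Within wide regions, summit positions seldom split by line. A site with a summit in all 5 T24R2 and no T24 library was found 20 times (0.424% of 4722 sites, against 1.71% over all sites), and 16 times for T24 (0.339%, against 0.635%). None passed after adjustment over all sites (adjusted p = 0.339 for 5 against 0). At an unadjusted p under 0.05 there were 63 sites toward T24R2 (1.33%, against 4.56%) and 117 toward T24 (2.48%, against 1.67%). T24 libraries had more summits per called wide region on average, 1.95 against 1.61, since each peak gives 1 summit. How far this sets the share toward T24 was not tested.

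Of the 16 T24 sites, 11 were in wide regions called in all 10 libraries, among them MKI67, RPRD2, GLI2, DIDO1 and PHF23. In 10 of these 11 all 5 T24R2 libraries had a peak over the position, so the site was inside a T24R2 peak whose summit lay elsewhere. The MKI67 site at position 128106251 of chromosome 10 was a summit in 5 T24 libraries and was covered by peaks of all 5 T24R2 libraries. The centromere protein gene CENPF, SH3PXD2A and ADIRF held T24R2 sites within regions called in all 10, and 2 of 5 such sites were covered in all T24 libraries. Without T24 replicate 1 the number of T24 sites was 57 in place of 16, without T24R2 replicate 3 it was 34, and without T24 replicate 5 it was 25. Leaving out a library loosens the rule to the libraries that remain, so these numbers could only stay or rise.

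The strength of single wide regions was compared with limma on the fold percentile, for 9577 regions called in all 10 libraries, of which 1073 were wide. After adjustment, 10 wide regions were higher in T24R2 (0.932% of 1073, with a background of 0.731%) and 1 was higher in T24 (0.0932%, with a background of 0.167%). These shares were near those over all tested regions. The median difference, T24R2 minus T24, was 3.60 percentile points in wide regions and 4.84 over all tested regions. Of the wide regions, 681 of 1073 (63.5%) were higher in T24R2. The regions that passed were picked on the same percentiles that are listed for them below. A lack of overlap between the lines in these regions is therefore a description and no further evidence. How often all tested regions lacked overlap was not counted.

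RNF26 encodes a ring finger ubiquitin ligase of the endoplasmic reticulum in a single exon, and its region spanned 2357 bases (chr11:119334509-119336865). Its fold percentile was 7.05, 3.53, 4.24, 9.27 and 1.16 in T24 and 42.2, 66.5, 66.1, 65.4 and 70.9 in T24R2. The lines did not overlap and the difference was 57.2 ± 6.77 (SE, limma adjusted p = 0.0068). Exons of the opposite strand overlap this region.

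The transcription factor gene SP5, a target of Wnt signalling, had a coding region in its last exon (chr2:170716175-170717761). Its percentiles were 16.3, 38.5, 39.2, 18.1 and 60.4 in T24 and 97.5, 97.2, 92.6, 90.01 and 90.1 in T24R2, and every T24R2 library was above every T24 library. The difference was 59.0 ± 8.58 (SE, limma adjusted p = 0.0123).

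FOXA1, a pioneer factor of luminal urothelial identity, had a region at chr14:37591102-37592835, with 77.5% coding and 15.3% 3′ UTR bases and most summits in the 3′ UTR. It had percentiles of 39.2, 28.6, 41.1, 67.1 and 43.2 in T24 and 92.1, 90.6, 78.6, 98.4 and 96.0 in T24R2. Its 10 libraries each had a single peak, and the lines did not overlap (difference 47.3 ± 7.90, SE, limma adjusted p = 0.0189). The underlying fold enrichment was 5.34 to 8.73 in T24 and 9.45 to 21.7 in T24R2.

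NR2F2, which encodes the nuclear receptor COUP-TFII, had a 5′ UTR region at chr15:96330819-96332537. Its percentiles were 38.4, 11.5, 10.3, 10.6 and 4.51 in T24 and 57.5, 54.7, 85.4, 80.6 and 67.9 in T24R2. The lines did not overlap (difference 54.2 ± 8.77, SE, limma adjusted p = 0.017), and T24 replicate 1 stood above the other T24 libraries. At equal list length the difference was 44.3 and did not pass (limma adjusted p = 0.0897).

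IGFBP5, a binding protein of insulin-like growth factors, differed in its 3′ UTR, with 19.9 to 55.4 in T24 and 86.7 to 99.6 in T24R2. The endoplasmic reticulum membrane protein gene CKAP4 rose from a mean of 27.3 to 70.5 in its last coding exon, and the microtubule-associated MAP1S rose from 36.0 to 83.8 in an internal coding exon. SEMA4B, a semaphorin, rose from 11.6 to 59.3 in its 3′ UTR. The zinc finger gene ZNF263 rose from 33.7 to 84.2 in a region that was 53.9% exonic. A region of 3399 bases at KIF7 and TICRR, classed as intronic to the kinesin gene KIF7, with 54.5% exonic bases and exons on both strands, rose from 48.6 to 95.8. The limma adjusted p of these 6 was 0.0124 to 0.0368. In each of them every T24R2 library was above every T24 library, which follows in part from their choice by limma.

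In the opposite direction, the non-coding exon region of ENSG00000291186 on chromosome 11 had a mean percentile of 92.0 in T24 and 48.1 in T24R2 (limma adjusted p = 0.0379), again without overlap. The next lowest p-values toward T24 did not pass, with TP73 at 93.6 and 51.5 (limma adjusted p = 0.0895). At equal list length, 7 of 1011 tested wide regions were higher in T24R2 and 3 in T24. Over all 7009 regions tested at that length these counts were 22 and 19. ZNF263 met the threshold under 3 of 15 alternative settings and SEMA4B under 10 of 17, with an adjusted p of 0.214 at equal list length. NR2F2 met it under 12 of 16, FOXA1 under 13 of 18, RNF26 under 15 of 16 and SP5 under 14 of 15, where SP5 had no value at equal list length. CKAP4 met it under 16 of 18, MAP1S under 15 of 17, KIF7 under 14 of 16 and IGFBP5 under 16 of 17. Settings were counted only where a region had a value. On the log2 fold scale, CKAP4, MAP1S, SEMA4B, NR2F2 and ZNF263 missed the threshold (limma adjusted p of 0.0643 to 0.15). RNF26, FOXA1, KIF7, SP5, IGFBP5 and ENSG00000291186 met it there. Without T24R2 replicate 2, or without T24R2 replicate 4, 6 wide regions were higher in T24R2. Over all tested regions these counts were 22 and 29. ENSG00000291186 passed in 1 of the 10 fits that left out 1 library (without T24R2 replicate 4, limma adjusted p = 0.0485). FOXA1 passed in 6 of these 10 fits, with a highest adjusted p of 0.0604 (limma), and missed it without T24 replicate 3 and without T24R2 replicate 2, 4 or 5.

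**Figure D4:**
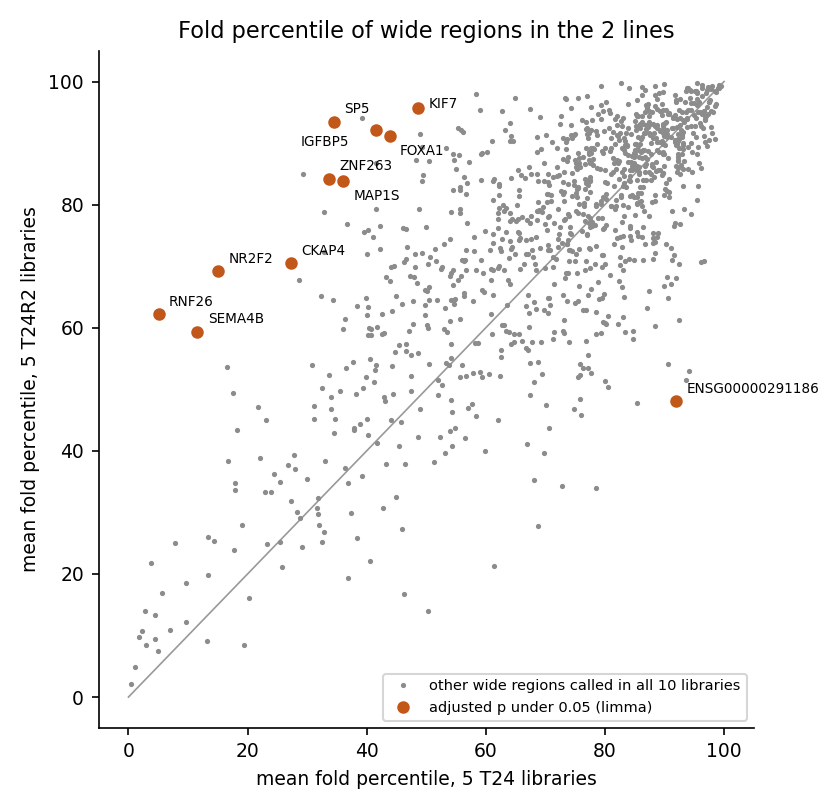
Mean fold percentile of the 1073 wide regions called in all 10 libraries, in T24 (horizontal axis) and T24R2 (vertical axis), with the line of equality. The 11 regions with a limma adjusted p under 0.05 are large orange points with their gene names, 10 above the line and ENSG00000291186 below it.

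The wide regions fell in 1065 genes, of which 1017 had 1, 43 had 2 and 5 had 3 or more. AHNAK2 had 6, and AHNAK, PLEC, LINC00342 and TTC28 had 3 each. Of all 13818 genes with any joined region, 7.71% had a wide one. The gene groups below are described by their counts beside this share, with no test. For the counts at an unadjusted p under 0.05 by limma, the count over all 1073 tested wide regions was 133, in either direction.

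Zinc finger genes, chosen by symbol, formed the largest group, with 157 of 581 genes (27.0%) and 162 wide regions. Most encode repressors with arrays of zinc fingers in a single long last exon, and 140 of the 162 regions lay in the last exon, 119 were coding, 123 held the stop codon and 75 were on chromosome 19. Their exons had a median length of 3432.5 bases. With a median GC content of 42.8% they were less GC-rich than the median of all wide regions, 57.8%. Their median fold percentile was 81.0 in T24 and 81.9 in T24R2, and of 160 tested, ZNF263 was higher in T24R2 and 0 were higher in T24 by limma. At an unadjusted p under 0.05 these counts were 9 and 6.

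Chromatin regulators had 19 of 47 genes (40.4%) and 26 wide regions, all coding. They included the histone methyltransferases KMT2A to KMT2E and SETD1B, the acetyltransferases CREBBP and EP300, and the remodelling subunits ARID1A and ARID1B. Long internal exons held 12 and last exons held 12. The median fold percentile was 68.5 in T24 and 69.5 in T24R2, the median difference was -0.0037 points, and 0 of 26 passed limma's test (2 at an unadjusted p under 0.05, both toward T24R2).

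Short-lived regulators, most of them induced within minutes to hours of a stimulus, had 14 of 54 genes (25.9%). They included JUN, JUNB, JUND, EGR1, IER2, KLF4 and SOCS3, and 13 of the 14 regions held the stop codon. Their median percentile was 49.0 in T24 and 62.0 in T24R2, and 0 of 14 passed limma's test (3 at an unadjusted p under 0.05, all toward T24R2). The 3′ UTR region of SOCS3, an inhibitor of cytokine receptors, had means of 49.3 and 89.3 (limma adjusted p = 0.126). JUN, an AP-1 subunit encoded by a single exon, had 13.4 and 26.0.

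Large scaffold and cytoskeletal genes had 9 of 30 genes (30%) and 20 wide regions, 19 of them coding. Their median fold percentile was low, 33.3 in T24 and 35.3 in T24R2, and the 3 AHNAK regions had 2.32 to 4.50 in T24 and 9.48 to 21.7 in T24R2. By −log10 q the same 3 regions ranked at 55.3 to 69.9. The 6 AHNAK2 regions, all in 1 last exon of 17547 bases, ranged from 23.2 to 36.4 in T24 and from 24.9 to 45.2 in T24R2. By limma 0 of 19 tested regions passed, with 1 at an unadjusted p under 0.05.

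Among m6A proteins, 5 of 20 genes with a region had a wide one. These were the writer subunits RBM15 and RBM15B and the cytoplasmic readers YTHDF1, YTHDF2 and YTHDF3. All 5 were coding and called in all 10 libraries. The mean percentiles of YTHDF1 were 35.5 in T24 and 49.7 in T24R2, those of YTHDF2 were 39.2 and 35.9, and those of YTHDF3 were 69.5 and 79.7. RBM15 had 56.1 and 70.9, and RBM15B had 44.9 and 65.2. By limma 0 of 5 passed, adjusted (p of 0.43 to 0.931) or unadjusted.

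**Figure D5:**
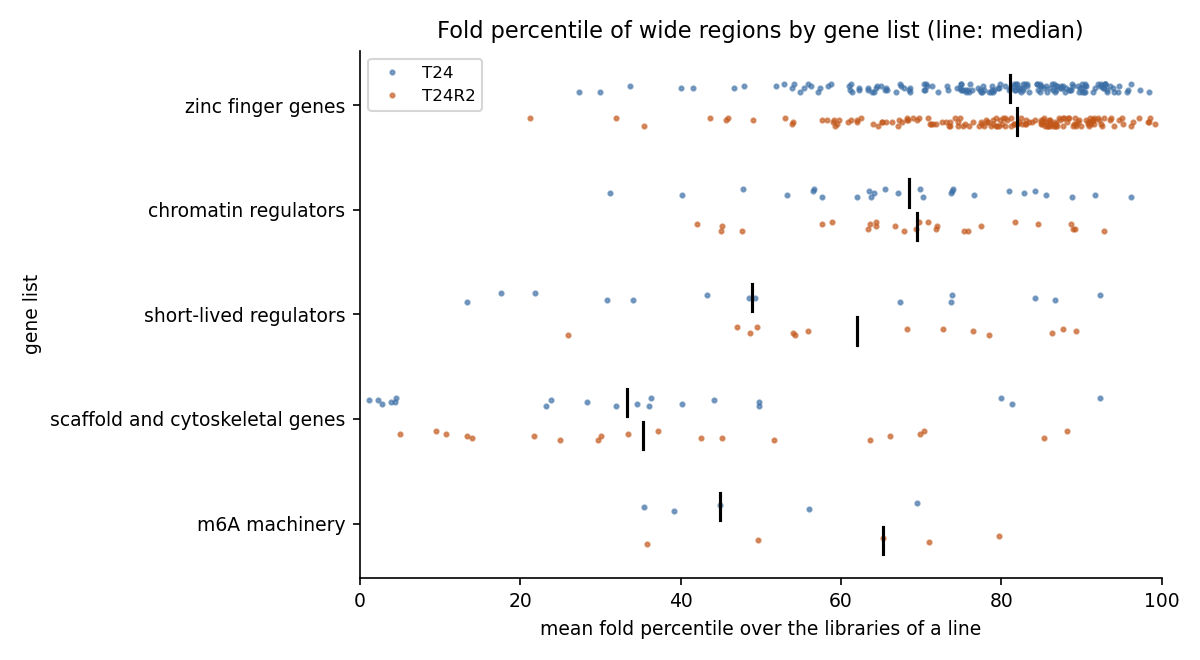
Mean fold percentile of each wide region in T24 (blue) and T24R2 (orange) for 5 gene groups, with the median of each group as a black line. Zinc finger genes had medians of 81.0 and 81.9, and scaffold and cytoskeletal genes had 33.3 and 35.3.

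Of the transcripts that the study followed up, 4 of 15 with a region had a wide one, namely ANO9, PLAU, FUT8 and ARHGAP45, with 5 regions. These transcripts were picked by the study on the same samples and are no independent evidence. PLAU, the urokinase gene, had cover of 14.5% in T24 and 91.3% in T24R2, with percentiles of 44.3 and 53.8 (limma adjusted p = 0.883). The longer ANO9 region of 2924 bases had cover of 17.6% and 71.1%, with percentiles of 56.2 and 91.9 (limma adjusted p = 0.182). FUT8, which adds core fucose to glycans, had cover of 83.9% and 60.7%. By limma 0 of the 4 tested regions passed, and 2 had an unadjusted p under 0.05, 1 in each direction.

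Of the 7 long non-coding RNAs on the list that had a region, MALAT1 and SNHG14 had a wide one. MALAT1, a nuclear RNA of high abundance, was near the bottom of both lists by fold, with 0.351 and 2.13, and its cover was 26.2% in T24 and 77.6% in T24R2. SNHG14 had 84.4 and 86.9.

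Among the 10 wide regions with the highest fold percentiles were those of GFOD1 (median 99.8 over 10 libraries), BCL2, the apoptosis inhibitor (99.6), CHMP6 (99.5), EME2 (99.5), LRFN1 (99.4), ZNF865 (99.3), AHDC1 (99.2), POU3F2 (99.2, in T24R2 only) and FRAT1 (99.2). Of these 9 named, 6 were classed as 3′ UTR, AHDC1 and POU3F2 as coding and BCL2 as 5′ UTR. They were 1505 to 5080 bases wide.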

How the data were processed

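Methylated RNA was pulled down and sequenced in 5 libraries of T24 and 5 of T24R2, grouped by sample title. Per the paper and the submitters' processing notes, the authors aligned reads to hg38 with STAR 2.7.0 and an earlier GENCODE release, kept unique non-duplicate reads with SAMtools 1.10 and called peaks over input in each library with MACS2 3.0.0a6 (extension size 100). Each deposited peak has a fold enrichment (a ratio of pull-down over local input), a −log10 p-value, a −log10 q-value and a deposited score made from q. The deposited lists hold no counts, so depth is unknown. The joined list had 43676 regions, all identical to a merge of the 10 lists, and 2 wide regions on other contigs were left out.

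Annotation used GENCODE 44. Peaks were assigned to regions by overlap, fold enrichment was ranked within each library (average ranks, percent), and summits within 100 bases were joined. Lines were compared by two-sided exact permutation tests over 252 assignments of libraries, by Fisher's exact test with Benjamini-Hochberg adjustment over all regions, and by limma 3.58.1 (R 4.3.3) on percentiles of regions called in all 10 libraries, after a check on simulated data. Other steps used Python 3.11.15 with scipy 1.17.1. Alternatives were stricter peaks, equal list lengths, other widths and joining distances, required cover, held-out members and each library left out. Held-out pairs were chosen after seeing the data.

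The regions, gene lists and tests were chosen with earlier results of these data known. Regions named are the 10 widest, those nearest the limit, the 10 highest percentiles, the most split, the lowest p-values in each direction, genes with 3 or more wide regions and members of the gene lists. RPRD2, GLI2, DIDO1, PHF23, CENPF, SH3PXD2A and ADIRF, which hold line-specific summit sites, were named after their values were seen. Some regions met by this rule are not reported here.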

Additional observations from a re-analysis of the deposited data

Results flagged for a closer look

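In 32 groups of 5 libraries (5 measures over wide regions and the fold percentiles of the 11 wide regions that passed limma's test, in each line), 2 had 1 library far from the other 4 by Dixon's criterion, where chance gives about 1 in 20 groups. For RNF26, T24R2 replicate 1 had a fold percentile of 42.2 while the other T24R2 libraries had 65.4 to 70.9. For NR2F2, T24 replicate 1 had 38.4 while the other T24 libraries had 4.51 to 11.5. Both values still lay on their own line's side of every library of the other line. The cause was not tested.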

How the results depend on the processing

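Depth was unknown and 5 libraries a line set the precision: Fisher's test of 5 against 0 could not pass after adjustment, and the exact permutation test cannot go below 0.00794. Of 202 alternative values for the results over all wide regions, 144 held both direction and call, or, for a count, lay within 1.5 times of it. Calls, peaks, summits and cover over the chosen set are descriptions here, since the same libraries chose the regions. Their permutation results enter the 144 and are no further evidence. Where a value below moved, the cause was not tested, and other widths change the number of regions counted.

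With the replicate block (an exact permutation test by sign flips within numbers, whose lowest p is 0.0625), the difference in fold percentile, T24R2 minus T24, was 4.35 points at that p, those in regions called and cover stayed at 29.4 regions and 18.8 points, and limma with the number as a block called 0 regions higher in T24R2 and 0 in T24 (120 at an unadjusted p under 0.05). Correlations of same-numbered libraries, over deviations of fold percentiles from the line's mean, were -0.030 to 0.111. Differently numbered libraries were not compared, so shared handling of same-numbered ones was not tested.

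The fold percentile difference was -0.389 at equal list length (reversed, exact permutation p = 0.698), 2.71 in regions of 2000 bases or more, 5.99 with −log10 q of 10 or more, 3.56 with a fold of 4 or more, 2.52 with cover of 50% or more, and 0.011 on the log2 fold scale, none of which passed. It was 9.79 with the mean fold weighted by peak width and 5.48 in regions of 1000 bases or more, which passed unadjusted (exact permutation p = 0.0159 and 0.0238). Peaks per called region differed by -0.369 at equal list length, as did summits.

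Regions toward T24R2 by unadjusted Fisher's test were 139 at 1000 bases, 8 at 2000 bases, 56 with −log10 q of 10 and 164 with cover of 50%, and toward T24 they were 43, 1, 14 at equal list length and 20 with cover of 50%. The 2 width limits left 3221 and 447 regions. Over all 43676 regions, 3106 (7.11%) were toward T24R2 and 915 (2.09%) toward T24, whatever the width limit. With stricter peaks, equal list length or required cover, regions were not counted over the whole list. Summit sites in T24R2 alone were 77 at 1000 bases, 9 at 2000 bases and 12 with summits joined within 50 bases, and in T24 alone 46, 9 and 8, with 6 at −log10 q of 10. Over all 59980 sites, 1024 were in T24R2 alone and 381 in T24 alone, whatever the width limit. At the other settings, sites were not counted over all regions. Wide regions higher in T24R2 by limma were 24 at 1000 bases, 3 at 2000 bases and 5 with cover of 50%. Over all tested regions these counts were 70 at both widths and 20 with that cover. Wide regions higher in T24 were 3 at 1000 bases, 0 at 2000 bases and 3 at equal list length. They were 2 on the log2 scale, 2 when 4 libraries of each line sufficed and 0 with the mean fold weighted by peak width. Over all tested regions the counts toward T24 were 16 at both widths, then 19, 30, 26 and 13 in the same order.

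Leaving out each library in turn gave differences of 27 to 31.8 regions called, -0.437 to -0.265 peaks and -0.437 to -0.265 summits per called region, 16.8 to 21.9 points of cover and 3.47 to 5.26 points of fold percentile. The fold percentile passed unadjusted in 5 of 10 fits. The unadjusted Fisher counts were 29 to 35 toward T24R2 and 9 to 10 toward T24, and they were not made over all regions. Summit sites were 21 to 28 in T24R2 alone and 17 to 57 in T24 alone. The rule then asks only for the libraries that remain, so these site counts could only stay or rise. They were not made over all sites. Limma called 6 to 14 wide regions higher in T24R2 and 0 to 1 in T24. Over all tested regions it called 22 to 110 and 9 to 16. For the 11 regions that limma called, 135 of 183 alternative values kept the call, 48 kept only the direction and 0 reversed.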
